A study of Salmo salar with 6 samples.

Results

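The genes described here carry out ubiquitin conjugation, its removal and proteasomal degradation in the head kidney (HK) of Atlantic salmon. They were chosen by symbol: probes whose RefSeq accession led to a gene named psma to psmg (proteasome), ube2, ube3 or ube4 (conjugating enzymes and ligases), uba with a number (activating enzymes), cul or cops with a number (cullins and COP9 signalosome), or usp, otud or uchl (deubiquitinases). The array carried 72 such probes, 1 for each of 72 genes, among 42386 probes that were not controls, which named 25460 genes in all. The gene table holds 89 symbols that follow the rule, and 17 of them had no probe found by symbol. No activating enzyme was among the 72.

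HK RNA was hybridized on 6 one-color Agilent arrays. Of these, 3 held pools of fish fed the control diet and 3 held pools of fish fed the AQUOLIVE® diet, which differed by the inclusion of 0.15% of an olive fruit extract, both sampled as juveniles at day 133 of feeding. Each pool joined RNA of 6 fish, with 1 fish from each replicate tank of its diet, and 18 fish were sampled per diet, so the spread reported is one between pools, and single fish were not measured. All fish were unvaccinated and had received hydrogen peroxide and formaldehyde baths after transport, whatever the diet.

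Ubiquitin is a small protein that cells attach to other proteins through a relay of activating (E1), conjugating (E2) and ligating (E3) enzymes. Chains linked through different lysines are read differently: some send a protein to the proteasome, a barrel-shaped protease (the 20S core) capped by a regulator (19S) that unfolds the substrate, and others serve as scaffolds in immune signaling. Deubiquitinases remove the chains, and in immune tissues some proteasome core subunits are replaced by forms that favor peptides presented on MHC class I molecules.

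Each array had its own slide. The slide barcodes were consecutive within each diet, with a break between the diets. These 2 series of barcodes are called slide runs here, and no label names them as batches. The control arrays were scanned first, so diet, slide run and scan order cannot be told apart. Between 42.5% and 76.0% of probes were well above background per array, with control pool 3 the lowest and the dimmest (median processed signal 16.7, against 52.1 to 108 on the other arrays). Myeloid and erythroid markers were measured in the tissue, as its label implies: all 7 myeloid probes and 3 of 4 erythroid probes were well above background on all 6 arrays. A single B-cell probe was, and of 4 T-cell probes 1 was. In bulk tissue, fewer cells of a type and less RNA per cell cannot be told apart. The summed linear signal of 6 myeloid probes was 153404 to 164404 in the control pools and 105842 to 147322 in the AQUOLIVE® pools, and that of 4 T-cell probes was 305 to 1084 and 1148 to 1320, with control pool 3 the lowest. These 4 probes measure 2 genes. The 2 cd8a probes lay wholly above the control pools (log2 FC 1.66 ± 0.70 and 0.67 ± 0.33; 14.7% of all probes). The 2 cd3e probes overlapped (-1.12 ± 0.82 and 0.68 ± 0.72). Of the 7 myeloid probes, mpx (log2 FC -0.90 ± 0.23, with no value in control pool 3) and cd68 (-0.85 ± 0.29) were lower and past the threshold defined below. Of the 6 measured on all arrays, cd68, cebpa (-0.47 ± 0.21) and mmp9 (-0.44 ± 0.25) lay wholly below the control pools (15.0% of all probes). Only csf3r lay wholly above (1.27 ± 0.41; 14.7% of all probes). Of the 4 erythroid probes hba was higher and past that threshold (0.89 ± 0.23, with no value in AQUOLIVE® pool 2). The erythroid probes alas2 (-0.18 ± 0.23), gata1 (-0.19 ± 0.21) and slc4a1b (1.22 ± 0.65) overlapped. Their summed signal was 32922 to 42909 in the control pools and 27655 to 35740 in the AQUOLIVE® pools. The part of these differences in the results that follow was not tested.

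Of the 72 probes, 66 were well above background on at least 3 arrays and were compared between diets, and 57 were above it on all 6. The 6 others were ubiquitin-specific proteases: usp13, usp21, usp53b and usp54a were not well above background on any array, usp19 was on AQUOLIVE® pool 2 alone, and usp49 was on control pool 2 and AQUOLIVE® pool 2. Levels are normalized log2 signals of single probes, log2 FC is the AQUOLIVE® mean minus the control mean on that scale, and n is 3 pools per diet throughout. Values of single pools are given in the order of the pools, 1 to 3.

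The differences between diets in these genes were centered near 0, with genes on both sides. The median log2 FC of the 66 genes was 0.0036, against -0.022 over all 25826 probes tested, and 34 of the 66 (51.5%) had a positive log2 FC, against 48.6% of all probes. None of the 66 passed limma with an adjusted p under 0.05, a call made for 0.0155% of all probes tested, and the smallest adjusted p among them was 0.159, for cul2. At an unadjusted p under 0.05 limma counted 11 of them, 16.7%, against 18.2% of all probes. The methods' t-test threshold, an unadjusted p under 0.05 with an absolute log2 FC of at least 0.8, was passed by psmc5, cul2 and ube2s upward, beside 5.22% of all probes, and by ube2v1 downward, beside 3.83%. These 4 genes are 6.06% of the 66, against 9.05% of all probes in either direction and 6.37% of those with a gene symbol. With other scalings the split of 3 up and 1 down became 4 and 0 (75th percentile), 4 and 1 (quantile), 1 and 1 (normexp) and 2 and 0 (deposited log2 values). In these settings 8.96%, 9.61%, 2.68% and 5.75% of all probes passed the threshold in either direction, in this order.

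Complete separation of the diets was counted as well. In 28 of the 65 genes measured on all 6 arrays the values of the diets did not overlap, 43.1%, against 29.7% of all probes and 29.3% of those with a gene symbol. Of these, 18 lay above, beside 14.7% of all probes, and 10 lay below, beside 15.0%. The counts depended on the scaling: 9 above and 7 below of 65 with normexp, where 10.3% and 9.15% of all probes did so, and 7 above and 5 below of 64 with the deposited log2 values, beside 11.1% and 6.49%. Control pool 3 was the lowest control in 27 of the 65 genes (37.4% of all probes), in 12 of the 18 among them, and it was the highest control in 8 of the 10. How often control pool 3 was the lowest or highest control among all probes without overlap was not counted, so these counts cannot be set against the array. With control pool 3 left out, 23 of 66 lay above (20.3% of all probes) and 12 below (18.5%). The smallest p that an exact permutation test of 3 pools against 3 can give is 0.1.

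**Figure D1:**
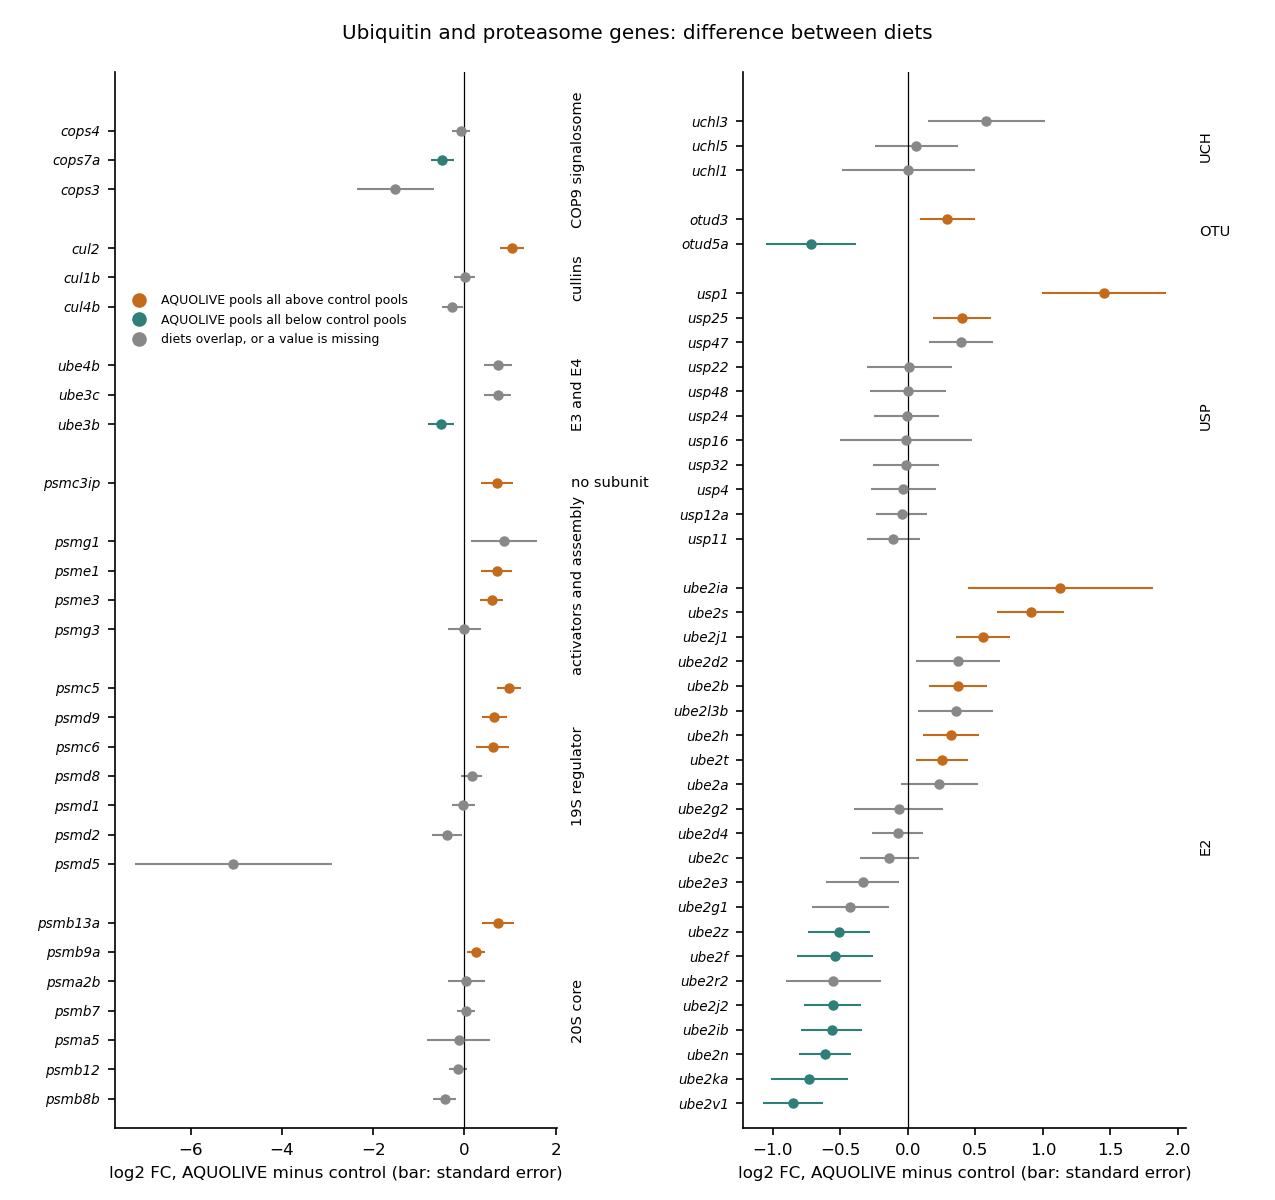
log2 FC (AQUOLIVE® minus control, horizontal axis) of the 66 genes by class, with bars of 1 standard error and a different axis range in each panel. Orange marks the 18 genes with every AQUOLIVE® pool above every control pool, green the 10 with every AQUOLIVE® pool below, and gray the rest. The proteasome classes hold orange and gray points alone, the E2 class holds both colors, and psmd5 stands far to the left with a wide bar.

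Before the classes, 2 genes have to be set apart for where their spots lie. On AQUOLIVE® pools 1 and 3 the arrays had a dim area around their center. A neighborhood (all kept probes within 0.5 mm, median 92 probes) was counted as low where its median deviation from the mean of the 6 arrays was -1 or less on the log2 scale. This held for 344 probes on AQUOLIVE® pool 1, 377 on AQUOLIVE® pool 3, 311 of them on both, 21 on control pool 3 and 0 on the other 3 arrays. The probes low on both lay within 1.30 mm of the center of an array 19.5 mm long.

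Among the 66 genes, psmd5 and cops3 lay in that area. The gene psmd5, a chaperone for assembly of the 19S base in yeast and mammals, read 11.38, 10.45 and 11.31 in the control pools against 3.78, 11.32 and 2.84 in the AQUOLIVE® pools. Its log2 FC of -5.06 ± 2.16 (SE; limma adjusted p = 0.284) came with a local level of -2.38 and -2.06 in AQUOLIVE® pools 1 and 3. With those spots set to missing it was 0.28, a value that rests on AQUOLIVE® pool 2 alone. After the subtraction of the local level described below it was -2.89 ± 1.24. AQUOLIVE® pools 1 and 3 then read 6.17 and 4.90, against 9.65 to 10.19 in the control pools. The gene cops3, a COP9 signalosome subunit, read 9.39, 8.34 and 8.94 in the control pools and 6.24, 9.33 and 6.57 in the AQUOLIVE® pools. Its log2 FC was -1.51 ± 0.84 as normalized, 0.44 with those spots missing (AQUOLIVE® pool 2 alone) and -0.26 ± 0.33 after that subtraction. In both genes AQUOLIVE® pool 2, whose array had no such area, lay within the range of the control pools. Across all probes, AQUOLIVE® pools 1 and 3 both lay at least 2 log2 units below the other 4 pools in 144 probes (0.571%), and 135 of these lay in the dim area of both arrays.

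**Figure D2:**
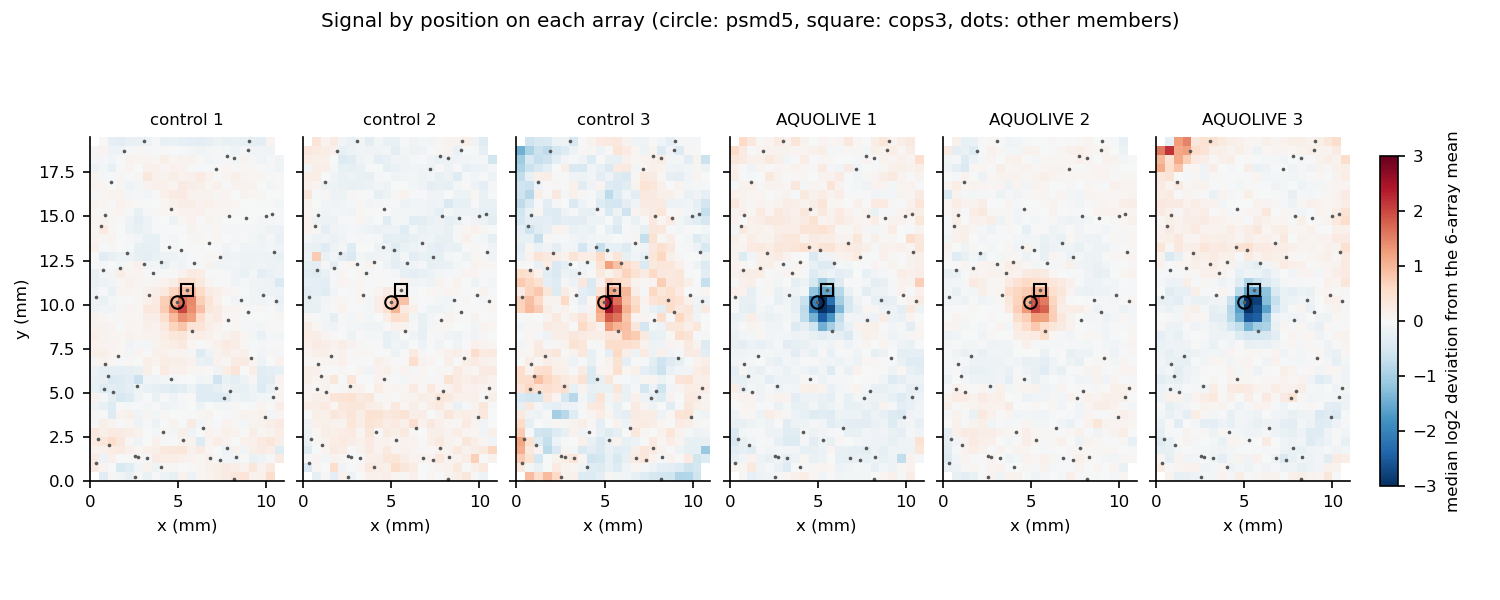
Median log2 deviation from the 6-array mean of kept probes in squares of 0.5 mm, by position (mm) on each of the 6 arrays, with blue below and red above the mean. A blue area stands at the center of AQUOLIVE® pools 1 and 3 while the same place is above the mean on the others. The circle (psmd5) and the square (cops3) lie in it, and the other members (dots) lie in no neighborhood counted as low.

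The remaining 64 genes lay in no low neighborhood. Their local levels still differed by between -0.64 and 0.53 log2 units between diets. The local level was therefore subtracted from each spot as an alternative chosen after the data were seen. With it, 14 genes lay wholly above (15.7% of all probes) and 13 wholly below (15.1%), and 11 of the 18 and 8 of the 10 kept their separation. Those that then overlapped were psmb13a, psmc6, psme1, psme3, ube2b, ube2h and ube2ia, which had been above, and ube2f and cops7a, which had been below. Apart from psmd5 and cops3, 6 genes moved by more than 0.3: psma5, psmb7, psmb13a, psme1, ube2s and usp16. The log2 FC of psma5 went from -0.13 to 0.51, that of psmb7 from 0.037 to -0.32 and that of usp16 from -0.010 to 0.61. The genes psmb7, ube2c, ube2r2, usp11 and usp12a were wholly below and cops4, usp22 and ube3c wholly above after it, having overlapped before.

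**Figure D3:**
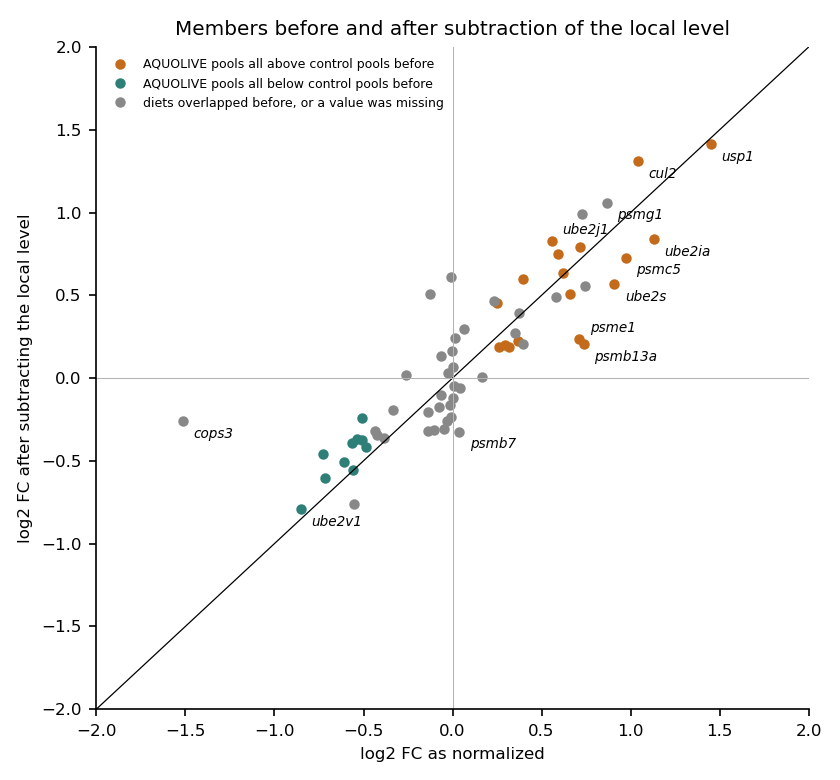
log2 FC as normalized (horizontal axis) against log2 FC after subtraction of the local level (vertical axis), 1 point per gene, psmd5 left out for its range. Most points lie near the diagonal line of equal values. The genes psme1 and psmb13a lie below it, at 0.24 and 0.21 after subtraction, and cops3 lies far above it.

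Of the 18 proteasome genes, 7 lay wholly above the control pools with the AQUOLIVE® diet (14.7% of all probes) and 0 wholly below (15.0%). Their median log2 FC was 0.10. In 6 of the 7 control pool 3 was the lowest control (37.4% of all probes, with or without overlap). The AQUOLIVE® pools were close together: the median SD of the 18 genes was 0.119 in the AQUOLIVE® pools and 0.473 in the control pools. Over all probes the median SD was 0.235 and 0.447. The counts above and below were 5 and 0 with 75th percentile scaling, 4 and 1 with normexp, 2 and 1 with the deposited log2 values, 8 and 1 without control pool 3, and 3 and 1 after subtraction of the local level. Of all probes, 14.8% lay above and 9.97% below with 75th percentile scaling, 10.3% and 9.15% with normexp, and 11.1% and 6.49% with the deposited values. These shares were 20.3% and 18.5% without control pool 3, and 15.7% and 15.1% after subtraction of the local level.

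The 19S regulator held the gene past the threshold. The gene psmc5, an ATPase of the ring that unfolds substrates, read 12.19, 11.80 and 11.36 in the control pools against 12.67, 12.87 and 12.73 in the AQUOLIVE® pools. All AQUOLIVE® pools lay above all control pools, 1.96-fold on average. Its log2 FC was 0.97 ± 0.27 (SE; limma adjusted p = 0.175), 0.75 without control pool 3 and 0.73 after subtraction of the local level. The gene psmc6, an ATPase of the same ring, had a log2 FC of 0.62 ± 0.35, which was 0.24 without control pool 3, the lowest at 9.80. The gene psmd9, which assists assembly of that ring in yeast and mammals, read 11.32, 11.61 and 10.77 in the control pools and 12.07, 11.76 and 11.85 in the AQUOLIVE® pools, without overlap (log2 FC 0.66 ± 0.28, and 0.42 without control pool 3). Its smallest log2 FC under the alternatives of processing was 0.075. Both psmc6 and psmd9 were named after their values were seen.

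The regulator genes psmd1, psmd2 and psmd8 did not separate the diets. The gene psmd2, the brightest probe of the class, read 12.35, 12.43 and 13.42 in the control pools and 12.29, 12.33 and 12.43 in the AQUOLIVE® pools. Its log2 FC of -0.39 ± 0.33 rested on control pool 3 and was -0.037 without it. The log2 FC of psmd1 was -0.027 ± 0.25 and that of psmd8 0.17 ± 0.23.

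In the 20S core, 4 of the 7 genes measured are neighbors on chromosome ssa14. In the order of the gene table these are psmb8b, psmb13a, psmb12 and psmb9a, followed by tap2a, a transporter of peptides for MHC class I presentation. In mammals psmb8 and psmb9 encode catalytic subunits of the immunoproteasome. These 4 neighbors had log2 FCs of both signs. The gene psmb9a read 12.14, 12.29 and 12.37 in the control pools and 12.59, 12.48 and 12.51 in the AQUOLIVE® pools, wholly above by 0.26 ± 0.19, and its sign turned with normexp (-0.015) and with the deposited values (-0.24). The gene psmb8b read 11.34, 10.94 and 11.70 against 10.78, 10.87 and 11.01, a log2 FC of -0.43 ± 0.26 (limma adjusted p = 0.391) that was -0.25 without control pool 3 and -0.63 without control pool 2, and the diets overlapped. Its log2 FC nearest to 0 under the alternatives of processing was -0.0016.

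The gene psmb13a read 12.26, 11.87 and 10.97 in the control pools and 12.50, 12.44 and 12.37 in the AQUOLIVE® pools. The AQUOLIVE® pools were close together and above, and control pool 3 was the low value. Its log2 FC of 0.74 ± 0.36 was 0.36 without control pool 3 and 0.21, with overlap, after subtraction of the local level, which was 1.02 around its spot in AQUOLIVE® pool 3. The log2 FC of psmb12 was -0.14 ± 0.20. Outside this block, psmb7, which carries one of the catalytic sites of the standard core and is the brightest probe of the class, read between 13.25 and 13.52 in all 6 pools (log2 FC 0.037 ± 0.19, and -0.32 after subtraction of the local level). The alpha subunit genes psma2b and psma5 had log2 FCs of 0.040 ± 0.40 and -0.13 ± 0.69, the latter 0.51 after that subtraction.

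Of the proteasome activators, psme1, which encodes a subunit of the interferon-inducible cap that binds the core in mammals, read 12.45, 12.51 and 11.47 in the control pools and 12.98, 12.62 and 12.96 in the AQUOLIVE® pools. All AQUOLIVE® pools lay above. Its log2 FC of 0.71 ± 0.34 (limma adjusted p = 0.316) was 0.36 without control pool 3 and 0.24, with overlap, after subtraction of the local level. The gene psme3, which encodes the nuclear activator, read 10.00, 9.92 and 9.33 against 10.41, 10.37 and 10.26, a log2 FC of 0.59 ± 0.25 that was 0.38 without control pool 3, and was named after its values were seen. Of the assembly chaperones of the core, psmg1 spread widely over the control pools (9.40, 11.93 and 9.23) and read 10.84, 11.35 and 10.96 with the AQUOLIVE® diet (log2 FC 0.87 ± 0.73, 0.38 without control pool 3 and 1.74 without control pool 2), and psmg3 had a log2 FC of -0.0046 ± 0.36.

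The fixed list of interferon response genes, which share induction by interferon with psmb8, psmb9 and psme1 in mammals, had 9 probes above background on all 6 arrays. Their median log2 FC was -0.041, and 1 passed the methods' threshold downward (3.83% of all probes) and 0 upward (5.22%). Wholly above the control pools lay 1 (14.7% of all probes), and 3 lay wholly below (15.0%). The transcription factor gene irf7 had a log2 FC of -1.13 ± 0.29 (limma adjusted p = 0.163), and rsad2 had -0.79 ± 0.23. The gene isg15, whose product is a ubiquitin-like modifier, read 11.15, 10.74 and 10.90 in the control pools and 10.11, 10.44 and 10.20 in the AQUOLIVE® pools. The transporter genes tap1 and tap2a had log2 FCs of -0.041 ± 0.21 and -0.030 ± 0.20, and tapbp, which tethers MHC class I molecules to the transporter, had 0.37 ± 0.22 with every AQUOLIVE® pool above. In ifi44 (-0.080 ± 0.35), ifi44b (0.64 ± 0.32) and tap2b (0.18 ± 0.30) the diets overlapped.

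**Figure D4:**
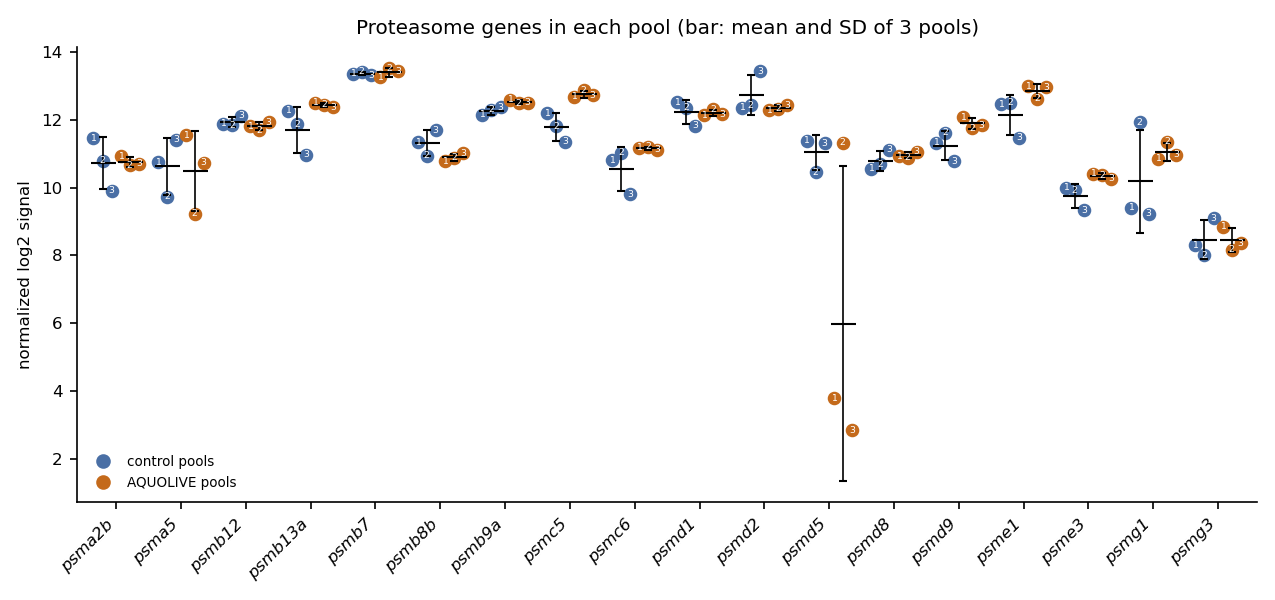
Normalized log2 signal (vertical axis) of the 18 proteasome genes in the 3 control pools (blue) and 3 AQUOLIVE® pools (orange), each point numbered by its pool, with bars for the mean and SD. The AQUOLIVE® points of psmb13a, psmc5, psmc6, psme1 and psme3 lie close together above control points that reach down to pool 3, and AQUOLIVE® pools 1 and 3 of psmd5 lie near 3. Levels of different probes are not comparable with one another.

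Among the E2 enzymes genes stood on both sides. Of the 22 genes 6 lay wholly above (14.7% of all probes) and 7 wholly below (15.0%), with a median log2 FC of -0.11. The counts above and below were 1 and 4 with normexp (median log2 FC 0.077), 2 and 3 with the deposited log2 values, 4 and 5 with 75th percentile scaling and 3 and 8 after subtraction of the local level. The shares of all probes in these settings are those given for the proteasome genes. The lowest log2 FCs were those of ube2v1, ube2ka and ube2n, in this order. The products of ube2v1 and ube2n form 1 enzyme in yeast and mammals: ube2n is the catalytic subunit, ube2v1 is a partner without catalytic activity, and together they build chains linked through lysine 63, which are used in signaling from Toll-like and cytokine receptors and in DNA repair.

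The gene ube2v1 read 12.16, 12.16 and 12.46 in the control pools against 11.32, 11.64 and 11.27 in the AQUOLIVE® pools. Each AQUOLIVE® pool lay at least 0.51 below each control pool. Its level was 1.80-fold lower, with a log2 FC of -0.85 ± 0.22 (limma adjusted p = 0.164) that stayed between -1.20 and -0.75 under every alternative. The gene ube2n read 10.13, 10.08 and 10.17 in the control pools, with an SD of 0.0477, and 9.64, 9.51 and 9.40 in the AQUOLIVE® pools. It was lower in 3 of 3 pools, 1.53-fold, with a log2 FC of -0.61 ± 0.19 (limma adjusted p = 0.200) between -0.91 and -0.51 under the alternatives. Both genes kept their separation after subtraction of the local level. No adjusted p of either fell under 0.05 in any alternative.

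The E2 of the SUMO modifier has 2 gene copies on the array, ube2ia on chromosome ssa06 and ube2ib on ssa19, and they stood on opposite sides. The copy ube2ib read 8.80, 9.11 and 8.75 in the control pools and 8.34, 8.53 and 8.10 in the AQUOLIVE® pools (log2 FC -0.56 ± 0.23, and -0.13 under the alternative nearest to 0). The copy ube2ia read 8.73, 8.73 and 6.39 against 9.62, 8.75 and 8.86, so that its log2 FC of 1.13 ± 0.68 rested on control pool 3 and was 0.35 without it. Control pool 3 was not well above background there, and AQUOLIVE® pool 2 lay 0.026 above the highest control pool and AQUOLIVE® pool 3 lay 0.13 above it. Only the shared symbol stem puts these probes together, and whether either also binds RNA of the other copy was not tested.

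The E2 enzymes ube2j1 and ube2j2, which sit in the membrane of the endoplasmic reticulum and mark misfolded proteins for degradation, also parted. The gene ube2j1 read 8.21, 8.49 and 8.45 in the control pools and 8.84, 8.96 and 9.03 in the AQUOLIVE® pools, with a log2 FC of 0.56 ± 0.20 as normalized and 0.83 after subtraction of the local level. The gene ube2j2 read 12.04, 12.15 and 12.21 against 11.35, 11.73 and 11.65, with a log2 FC of -0.56 ± 0.21. Neither pair of ranges overlapped, and as normalized control pool 3 lay 0.041 (ube2j1) and 0.053 (ube2j2) from its nearest control pool. After subtraction of the local level the control pools read 8.51, 8.39 and 7.87 (ube2j1) and 12.03, 11.94 and 12.56 (ube2j2). Control pool 3 then lay apart from the other control pools in both genes, and the diets still did not overlap. The genes ube2ib, ube2j1 and ube2j2, like the others in the next paragraph except ube2s and ube2c, were named after their values were seen.

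Below the control pools stood ube2ka, which builds chains linked through lysine 48 in mammals, at 6.40, 6.63 and 6.73 against 5.69, 6.36 and 5.53. AQUOLIVE® pool 2 lay 0.042 below the lowest control pool, and the log2 FC of -0.73 ± 0.28 was -0.46 after subtraction of the local level. The log2 FC was -0.54 ± 0.28 for ube2f, an E2 of the ubiquitin-like protein NEDD8, which was -0.29 without control pool 3, and -0.51 ± 0.23 for ube2z. Above the control pools stood ube2s, which lengthens chains on substrates of the anaphase-promoting complex. It read 4.87, 4.62 and 4.54 in the control pools and 5.24, 5.62 and 5.89 in the AQUOLIVE® pools (log2 FC 0.91 ± 0.25; limma adjusted p = 0.175) and passed the methods' threshold. These are dim values: 1 of its 3 control spots and 3 of its 3 AQUOLIVE® spots were well above background, and the log2 FC was 0.26 with normexp and 0.57 after subtraction of the local level. The gene ube2c, which starts those chains and was the brightest E2 probe, overlapped between diets (log2 FC -0.14 ± 0.22) and lay wholly below after that subtraction (-0.32). The genes ube2b, ube2h and ube2t lay wholly above by 0.37 ± 0.22, 0.32 ± 0.21 and 0.25 ± 0.19, which became 0.23, 0.19 and 0.46 with it, and the sign of ube2t turned with the deposited values (-0.021). The probe of ube2d2 had no value in control pool 3, where its spot was an outlier, and its log2 FC of 0.37 ± 0.31 rests on 2 control pools.

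**Figure D5:**
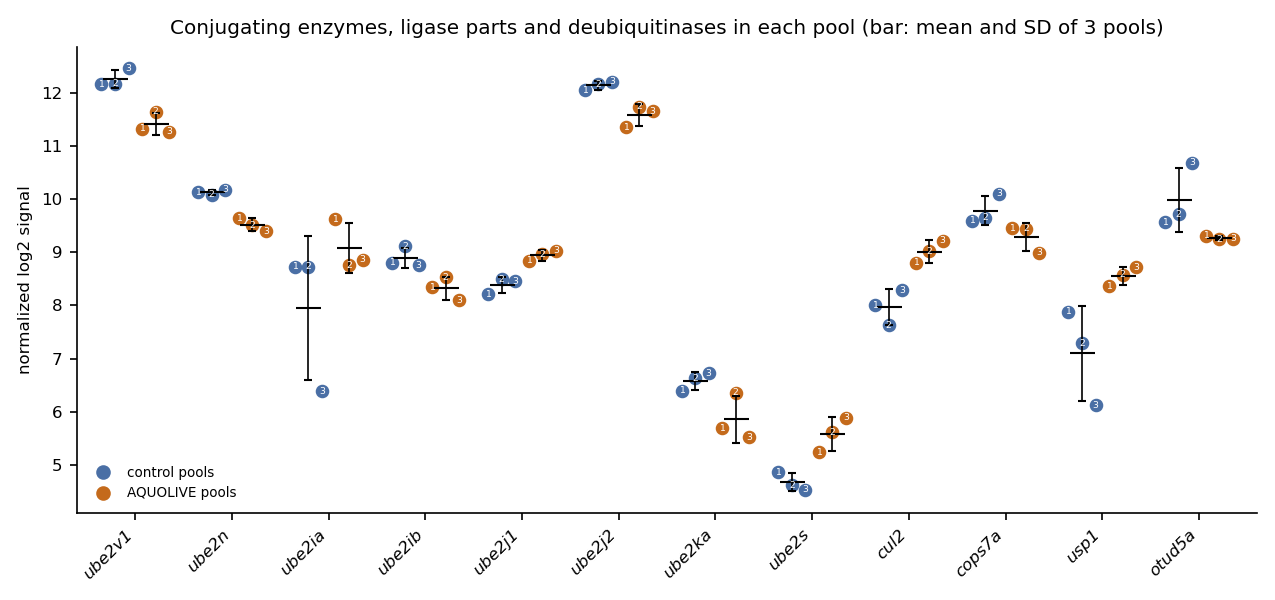
Normalized log2 signal (vertical axis) of 12 genes in the 3 control pools (blue) and 3 AQUOLIVE® pools (orange), each point numbered by its pool, with bars for the mean and SD. In ube2v1, ube2n, ube2j2 and ube2ib the orange points lie below the blue ones, in ube2j1, ube2s, cul2 and usp1 above, and the long control bars of ube2ia and usp1 come from a low control pool 3. Levels of different probes are not comparable with one another.

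Among the ligases, the HECT enzyme gene ube3b read 7.96, 8.09 and 8.78 in the control pools and 7.65, 7.83 and 7.81 in the AQUOLIVE® pools. Its log2 FC of -0.51 ± 0.28 was -0.24 without control pool 3 and -0.24 after subtraction of the local level. The gene ube4b, which encodes an enzyme that extends existing chains in yeast and mammals, read 7.67, 7.10 and 6.73 against 7.62, 8.03 and 8.09 (log2 FC 0.74 ± 0.31), with AQUOLIVE® pool 1 inside the control range. The remaining gene of the class, ube3c, read 6.86, 6.26 and 5.92 against 6.83, 7.15 and 7.25 (log2 FC 0.73 ± 0.30). Its diets overlapped, and 2 of its 3 control spots were well above background. After subtraction of the local level ube3c lay wholly above, with a log2 FC of 0.99. It was named after its values were seen.

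Cullins are the scaffolds of a large family of ligases. The gene cul2, whose product in mammals forms the ligase that turns over the hypoxia-inducible factor, read 8.01, 7.62 and 8.29 in the control pools against 8.80, 9.02 and 9.22 in the AQUOLIVE® pools. Every AQUOLIVE® pool lay at least 0.51 above every control pool. Its level was 2.06-fold higher, with a log2 FC of 1.04 ± 0.26 (limma adjusted p = 0.159), 1.18 without control pool 3, 1.31 after subtraction of the local level (limma adjusted p = 0.0701) and 0.64 with normexp. The other cullins overlapped between diets: cul1b had a log2 FC of 0.0080 ± 0.23 and cul4b, the brightest of the class, had -0.26 ± 0.23, which was 0.018 after subtraction of the local level.

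The COP9 signalosome removes NEDD8 from cullins and so resets these ligases. Beside cops3, which lay in the dim area, cops4 had a log2 FC of -0.065 ± 0.20, 0.13 and wholly above after subtraction of the local level, and cops7a, named after its values were seen, lay wholly below by -0.49 ± 0.25, which was -0.32 without control pool 3 and -0.42, with overlap, after subtraction of the local level.

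Of the 22 deubiquitinase genes on the array 16 could be compared, and 3 lay wholly above (14.7% of all probes) and 1 wholly below (15.0%). Of the 11 ubiquitin-specific proteases compared, 8 had a log2 FC within 0.11 of 0, as 13.7% of all probes had. The limit of 0.11 lies just beyond the value of usp11 (-0.107), so the choice of limit fixed that count. The 8 of 11 therefore cannot be weighed against the share over all probes. Among the 8 was usp16, whose local levels are given above. After subtraction of the local level 1 was within the limit (15.0% of all probes), with usp11 and usp12a wholly below (both -0.31) and usp22 wholly above (0.24). The largest difference among the 11 was that of usp1, which in mammals removes ubiquitin from DNA repair proteins such as the replication clamp. It read 7.88, 7.29 and 6.13 in the control pools against 8.36, 8.57 and 8.71 in the AQUOLIVE® pools. All AQUOLIVE® pools lay above, 2.73-fold on average, and the control pools spread over more than the AQUOLIVE® pools did. Its log2 FC was 1.45 ± 0.46 (limma adjusted p = 0.201). It was 0.96 without control pool 3, and the methods' threshold was then passed, as it was without control pool 1, with 75th percentile scaling, quantile, normexp, the deposited values and the local level subtracted. The brightest probe of the class, usp11, read between 10.01 and 10.34 in all 6 pools. The gene usp25, named after its values were seen, lay wholly above by 0.40 ± 0.21, and by 0.60 after subtraction of the local level.

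Of the OTU proteases, otud5a, whose product in mammals trims chains in the pathway to type I interferon, read 9.57, 9.71 and 10.68 in the control pools and 9.31, 9.25 and 9.26 in the AQUOLIVE® pools. The AQUOLIVE® pools lay below, with a range of 0.061, and the log2 FC of -0.72 ± 0.33 was -0.36 without control pool 3 and -0.17 under the alternative nearest to 0. The gene otud3 lay wholly above by 0.29 ± 0.20, and its sign turned with the deposited values (-0.088). In the UCH family, uchl5, whose product binds the 19S regulator and trims chains there, overlapped (10.25, 9.46 and 10.02 against 10.16, 9.56 and 10.20), as did uchl3 (log2 FC 0.58 ± 0.43, and 0.090 without control pool 3), in which control pool 3 read 8.90 and the other 5 pools 10.32 to 10.54.

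One probe met the symbol rule without belonging to the machinery. The gene psmc3ip is named for binding a proteasome subunit, and its product works in meiotic recombination in mammals. It read 9.74, 9.71 and 8.62 against 10.07, 10.08 and 10.06, a log2 FC of 0.72 ± 0.34 that was 0.34 without control pool 3.

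A list of 118 other genes of these pathways, written from general knowledge, had 60 probes by symbol, of which 55 were kept. Their median log2 FC was -0.040, and limma called 0 of them. The methods' threshold was passed by 1 upward (tnfaip3), beside 5.22% of all probes, and 1 downward (cdc27), beside 3.83%. Among 53 with a value on all arrays, 7 lay wholly above and 8 wholly below, beside 14.7% and 15.0% of all probes. Counts alone were planned for this list, and the genes named from it here were chosen after their values were seen. The lowest log2 FC was that of sae1 (-3.18 ± 1.15; limma adjusted p = 0.238). It read 10.99, 10.22 and 12.66 against 6.68, 10.55 and 7.11, with AQUOLIVE® pools 1 and 3 low as in psmd5 and cops3. The local level around its spot is not given here. The ubiquitin precursor gene ubb read 14.65, 14.30 and 14.85 in the control pools and 13.78, 14.16 and 13.96 in the AQUOLIVE® pools, wholly below (log2 FC -0.63 ± 0.24; limma adjusted p = 0.253). The gene sqstm1, whose product carries ubiquitin-marked cargo to autophagy, read 12.97, 13.02 and 13.75 against 12.75, 12.54 and 12.87 (log2 FC -0.53 ± 0.28; limma adjusted p = 0.356). Every AQUOLIVE® pool lay above for adrm1, a ubiquitin receptor of the 19S regulator (log2 FC 0.29 ± 0.20; limma adjusted p = 0.451), and for rad23b, a shuttle for chains (0.44 ± 0.20; limma adjusted p = 0.298). The other shuttle gene measured, rad23aa, overlapped (-0.079 ± 0.22), as did nploc4 (-0.20 ± 0.23). The gene tnfaip3, which edits chains in NF-kappaB signaling in mammals, read 6.22, 6.07 and 5.24 against 6.79, 6.63 and 7.12 (log2 FC 1.00 ± 0.33; limma adjusted p = 0.208).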

How the data were processed

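The authors deposited 1 Feature Extraction file per array (version 10.7.3.1 in the file headers), with a spot's intensity (processed, median and background signals), its flags and its position; they also deposited log2 values, which match the background-subtracted signal (tolerance 1e-08) and are not scaled between arrays. Processed signals were put on the log2 scale, outlier spots were dropped, and a probe was kept where 3 or more of the 6 arrays had it well above background. Each array was normalized by robust loess (span 0.3, 4 iterations) on the mean of the 3 control arrays; the methods name Lowess and the unpaired test without these settings. Diets were compared over all kept probes with limma 3.58.1 in R 4.3.3 (two-sided, Benjamini-Hochberg, threshold 0.05) and with the methods' t-test; its minimum log2 FC of 0.8 follows the study's intervals. After Benjamini-Hochberg the methods' t-test called 0 probes. The fit was run on simulated data with independent noise per probe and smooth array curves. These data held no dim area and no local levels, so they do not bear on either.

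Names came from the Ssal_v3.1 gene table: of 42386 probes 40933 had an accession, 25641 were found and 8155 had a symbol. Genes were named if past the methods' threshold, highest, lowest or brightest in their class, or among 15 fixed by role, of which 5 had a kept probe. Members, classes and lists were chosen with earlier results of these data known. The alternatives were scaling, background correction, filters, weights, a pool-number block and leaving out arrays; 2 spatial ones were added after seeing the data. Normexp used the median foreground signal, in place of the planned mean signal. The deposited log2 values were centered on the median of each array before the diets were compared. Pools number 3 per diet, nothing but the pool being replicated, and the number of arrays limits the precision. Deviations of same-numbered pools were weakly correlated (0.21, -0.058 and 0.027). Sequences were not used here.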

Additional observations from a re-analysis of the deposited data

How the results depend on the processing

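Of 28 genes with a direction (past the methods' threshold or without overlap), 25 kept the sign of their log2 FC under every alternative that gave a value; ube2ia and ube2s had none with the filter on all 6 arrays. The separation of the pools was kept less often: of the 18 genes above and 10 below, 8 and 5 kept it with normexp and 7 and 4 with the deposited values. Separation was rarer over all probes too: 29.7% as normalized, 19.4% with normexp and 17.5% with the deposited values. The sign of psmb9a turned with normexp (-0.015) and with the deposited log2 values (-0.24), that of ube2t with the deposited values (-0.021) and that of otud3 with the deposited values (-0.088); the cause was not tested. Limma called 0 of the genes under every alternative other than leaving out AQUOLIVE® pool 2, which gave 1 (psmd5, in the dim area; limma adjusted p = 0.0117), so that the range over left-out pools was 0 to 1. The number past the methods' threshold upward was 1 with normexp and 1 with the pool number as a replicate block, and ran from 1 (without AQUOLIVE® pool 3) to 6 (without control pool 1). Downward it was 0 with 75th percentile scaling, the deposited values, array weights and the local level subtracted, and ran from 0 (without control pool 3 or AQUOLIVE® pool 3) to 4 (without AQUOLIVE® pool 2). Over all probes the share past the threshold in either direction was 2.68% with normexp, 5.34% with the block and 5.75% with the deposited values. It was 8.96% with 75th percentile scaling, 8.54% with array weights and 9.09% with the local level subtracted. Over left-out pools it ran from 4.38% (AQUOLIVE® pool 3) to 9.74% (control pool 1), with 8.61% for AQUOLIVE® pool 2 and 6.28% for control pool 3. The median log2 FC of the genes was 0.10 with normexp and ran from -0.036 to 0.12 over left-out pools. Correlations of the deviations of same-numbered pools were 0.21, -0.058 and 0.027. Whether same-numbered pools were handled together was not tested. The block left cul2 and ube2v1 past the threshold, while psmc5 and ube2s no longer passed it. Slide could not be used as a block, with 1 array per slide. Using 1 probe per gene left every member as it was. Setting the spots of the dim area to missing left 3 genes upward and 1 downward. Depth of signal limits ube2ia, ube2l3b, ube2r2, ube2s, ube3c, usp24, usp32 and uchl1, which, like psmd5, were not well above background on all arrays.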

Other observations

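The anaphase-promoting complex, the ligase that ube2c and ube2s serve in cell division, was measured by 9 kept probes of its subunits and activators, whose median log2 FC was 0.062. Every AQUOLIVE® pool lay above every control pool in 2 of them and below in 2, and 5 overlapped, beside 14.7% above and 15.0% below over all probes. The subunit gene cdc27 read 10.75, 10.57 and 11.46 in the control pools and 10.13, 9.90 and 10.09 in the AQUOLIVE® pools, and the activator gene cdc20 read 11.95, 11.56 and 12.24 against 11.24, 11.44 and 11.34. On the other side, cdc26 read 9.92, 9.34 and 7.86 against 10.29, 10.13 and 10.14, again with control pool 3 the lowest, and cdc16 read 8.79, 9.07 and 9.15 against 9.27, 9.26 and 9.50.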
